A study of Homo sapiens with 38 samples.

Results

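The genes described here are ATF4, the transcription factor at the centre of the cellular response to amino acid shortage, 8 genes tied to it as regulators or targets (DDIT3, TRIB3, SESN2, ASNS, PSAT1, PHGDH, CHAC1 and VLDLR), and ASS1, an enzyme of arginine synthesis. These 10 genes were taken by their symbols from an expression table of 25504 genes. ASS1 was chosen by its low FPKM value in the library treated with NCD38 for 30 days, so its values are given as a description and were not tested. Of the 10 genes, 9 had a mean level of at least 1 FPKM, a fragment number scaled for transcript length and for the mapped fragments of the library, and 10865 genes in all reached that level. VLDLR was listed at 0 in all 8 libraries.

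The cells were RKO, an established line of human colorectal carcinoma, and their RNA was sequenced. The study's methods give 0.1% DMSO as the solvent of the inhibitors in the treatment of 30 days. The same share is not stated there for the DMSO cultures or for day 4. The labels give a dose of 2 μM for each inhibitor on both days. The treatments were DMSO alone, NCD38, NCD38-β2P4 and NCD38-β2PIPP, and RNA was taken on day 30 or on day 4, with 1 library for each of the 8 conditions. NCD38 inhibits LSD1, a histone demethylase, and in the other two compounds it is joined through a β-alanine linker to a polyamide that binds the DNA minor groove. The P4 polyamide is built of pyrroles, and in the PIPP polyamide an imidazole takes the place of a pyrrole. The study's methods give 2 mM for the day 4 treatment where the labels give 2 μM.

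When amino acids run short or the endoplasmic reticulum is under stress, kinases phosphorylate the initiation factor eIF2α. General translation then slows while ATF4 protein is made more efficiently. ATF4 raises the transcription of genes for amino acid synthesis and uptake, and also of DDIT3, which encodes the factor CHOP, and of TRIB3, a pseudokinase that restrains it. RNA levels alone were measured here, and ATF4 protein and eIF2α phosphorylation were not.

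The composite element through which ATF4 and C/EBP factors act was searched as the letters TGATGNAA on both strands of the 300-base RefSeq promoter windows, which run from 250 bases before to 50 bases after a gene start. All 10 genes had at least 1 window, and the element was found in ASNS and CHAC1, whereas 4.5% of 27305 genes held it. The windows of these 2 genes are shown because both are among the genes that were higher on day 30, described in a later paragraph. The windows come from a GRCh38 table and matched GRCh37 exactly at a single place, given here on that build. The element is in capitals and starts 68 bases before the start site in ASNS and 209 bases before it in CHAC1, where it lies on the opposite strand.
ASNS, chr7:97501671-97501970, minus strand: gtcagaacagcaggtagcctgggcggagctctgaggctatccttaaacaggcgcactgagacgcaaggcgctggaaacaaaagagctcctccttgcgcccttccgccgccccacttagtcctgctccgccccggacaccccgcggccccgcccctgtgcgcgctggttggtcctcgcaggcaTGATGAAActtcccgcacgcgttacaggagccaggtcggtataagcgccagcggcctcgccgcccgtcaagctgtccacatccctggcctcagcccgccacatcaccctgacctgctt
CHAC1, chr15:41245419-41245718, plus strand: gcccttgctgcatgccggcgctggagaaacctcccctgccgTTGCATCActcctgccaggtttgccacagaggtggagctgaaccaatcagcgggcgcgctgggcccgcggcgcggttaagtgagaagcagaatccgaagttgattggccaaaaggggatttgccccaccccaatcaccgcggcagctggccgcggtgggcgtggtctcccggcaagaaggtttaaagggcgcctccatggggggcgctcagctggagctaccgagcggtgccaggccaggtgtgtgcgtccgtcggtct
In the windows of the other 8 genes these letters were absent, which says nothing of elements elsewhere.

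Read counts were not used here, and depth was therefore estimated from the value at which genes with a single fragment pile up. The estimates ran from 12300000 to 22800000 fragments a library. As a check of the cells, KRT18 was at 76.2 to 121.0 FPKM and CDX2, an intestinal factor, at 7.48 to 11.6 FPKM, while EPCAM reached 6.53 FPKM at most and CDX1 and KRT20 were listed at 0 throughout. PTPRC, a leukocyte marker, was at 0 in all libraries, and ALB of the liver and COL1A1 of fibroblasts did not pass 0.0591 FPKM.

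The largest differences within the group were between the days. ATF4, DDIT3, ASNS, PSAT1 and CHAC1 were 2.8 to 4.35 times as high on day 30 as on day 4 (means of log2(FPKM + 1) over 4 libraries a day), and for each of these genes the lowest library of day 30 was above the highest of day 4. Of all expressed genes 61.9% were called between the days, a share like that of these 5 among 8, and 29.5% had every library of day 30 above every one of day 4. TRIB3, SESN2 and PHGDH did not pass the test. On day 30 the NCD38 library was set apart by low values of the amino acid enzymes ASNS, PSAT1 and PHGDH, together with ASS1, which was chosen by that value, while both conjugates were close to DMSO for these genes. On day 4 other genes stood out, since CHAC1, DDIT3 and SESN2 were at least 2-fold lower in the NCD38 library than in DMSO, beside 4.54% of all genes. Relative to the median of all genes, which was itself lower in that library, DDIT3 (-0.83) and SESN2 (-0.8) were not past 2-fold. No difference between treatments passed a test over both days.

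ATF4 lies at chr22:39915700-39918688 on the plus strand of GRCh37 and has 3 exons in its canonical transcript. Its level was 1076 FPKM in DMSO, 879.7 in NCD38, 878.9 in NCD38-β2P4 and 974.4 in NCD38-β2PIPP on day 30. On day 4 the same treatments gave 290.2, 196.6, 278.7 and 281.2 FPKM. All 4 libraries of day 30 were above all of day 4, and within day 4 the NCD38 library was the low one, with the others close together.

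DDIT3 (chr12:57910371-57915520, minus strand) encodes CHOP, a factor that pairs with C/EBP proteins and is linked to cell death after long stress. On day 30 it was at 122.5 FPKM in DMSO, 96.98 in NCD38, 90.25 in NCD38-β2P4 and 105.4 in NCD38-β2PIPP. On day 4 it was at 24.25, 11.27, 27.16 and 36.67 FPKM in the same order. The days did not overlap, the NCD38 library was lowest on day 4, and NCD38-β2PIPP was highest on that day. By the annotation MARS1 and MBD6 overlap DDIT3 on the opposite strand and MIR616 and an unnamed protein-coding model on the same strand, so its level is uncertain where reads are shared. Whether the counting used strand is not given in the sources used here.

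TRIB3 (chr20:343479-378203, plus strand) encodes a pseudokinase that binds ATF4 and limits its activity. Its 4 libraries of day 30 were at 60.53 (DMSO), 58.16 (NCD38), 58.63 (NCD38-β2P4) and 61.59 (NCD38-β2PIPP) FPKM. Those of day 4 were at 99.77, 71.07, 77.54 and 60.57 FPKM. On day 30 the libraries were nearly level, and on day 4 all inhibitor libraries were below DMSO, which was the highest of the 8.

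SESN2 (chr1:28586029-28609002, plus strand) encodes sestrin 2, a leucine sensor that restrains the growth kinase complex mTORC1. It had the same form. On day 30 its level was 24.02 FPKM in DMSO, 22.85 in NCD38, 22.72 in NCD38-β2P4 and 23.28 in NCD38-β2PIPP. On day 4 the values were 42.33, 20.57, 33.08 and 24.5 FPKM. DMSO on day 4 was again the highest of the 8 libraries.

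ASNS (chr7:97480989-97501854, minus strand, 13 exons) encodes asparagine synthetase, the best known target of the amino acid response. Its level on day 30 was 334.0 FPKM in DMSO, 190.4 in NCD38, 324.9 in NCD38-β2P4 and 343.7 in NCD38-β2PIPP. On day 4 it was 70.71, 69.09, 63.11 and 71.35 FPKM. The day 4 libraries lay within a narrow range, and on day 30 the NCD38 library lay far below the other 3, which were close together.

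PSAT1 and PHGDH encode enzymes of the route from a glycolytic intermediate to serine. PSAT1 (chr9:80912041-80945009, plus strand) was at 98.66 FPKM in DMSO, 65.71 in NCD38, 95.64 in NCD38-β2P4 and 98.2 in NCD38-β2PIPP on day 30. On day 4 it was at 28.63, 15.73, 35.51 and 43.1 FPKM. The NCD38 library was the lowest on both days.

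PHGDH (chr1:120191034-120286841, plus strand) was at 145.9 FPKM in DMSO, 103.1 in NCD38, 141.6 in NCD38-β2P4 and 141.4 in NCD38-β2PIPP on day 30. On day 4 it was at 154.8, 214.9, 147.2 and 128.2 FPKM. The NCD38 library was thus the lowest on day 30 and the highest on day 4.

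CHAC1 (chr15:41245160-41248710, plus strand) encodes an enzyme that breaks down glutathione. It was the lowest of the 9 genes. On day 30 it was at 23.93 FPKM in DMSO, 19.8 in NCD38, 17.37 in NCD38-β2P4 and 18.64 in NCD38-β2PIPP. On day 4 it was at 12.54, 3.348, 7.868 and 4.791 FPKM, and the value with NCD38 stood for an estimated 67 fragments. DMSO was the highest library on each day.

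ASS1 (chr9:133320348-133376661, plus strand, 15 exons) encodes argininosuccinate synthase, which joins citrulline and aspartate, and cells without it need arginine from outside. Its level on day 30 was 53.25 FPKM in DMSO, 22.1 in NCD38, 59.46 in NCD38-β2P4 and 50.68 in NCD38-β2PIPP. On day 4 it was 57.34, 73.89, 47.44 and 43.56 FPKM. The value of NCD38 on day 30 is the one for which the gene was picked, and on day 4 the NCD38 library was the highest. The annotation names 14 pseudogenes of ASS1 and 4 each of ATF4, ASNS and PSAT1, so reads shared with those copies leave these levels uncertain.

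**Figure D1:**
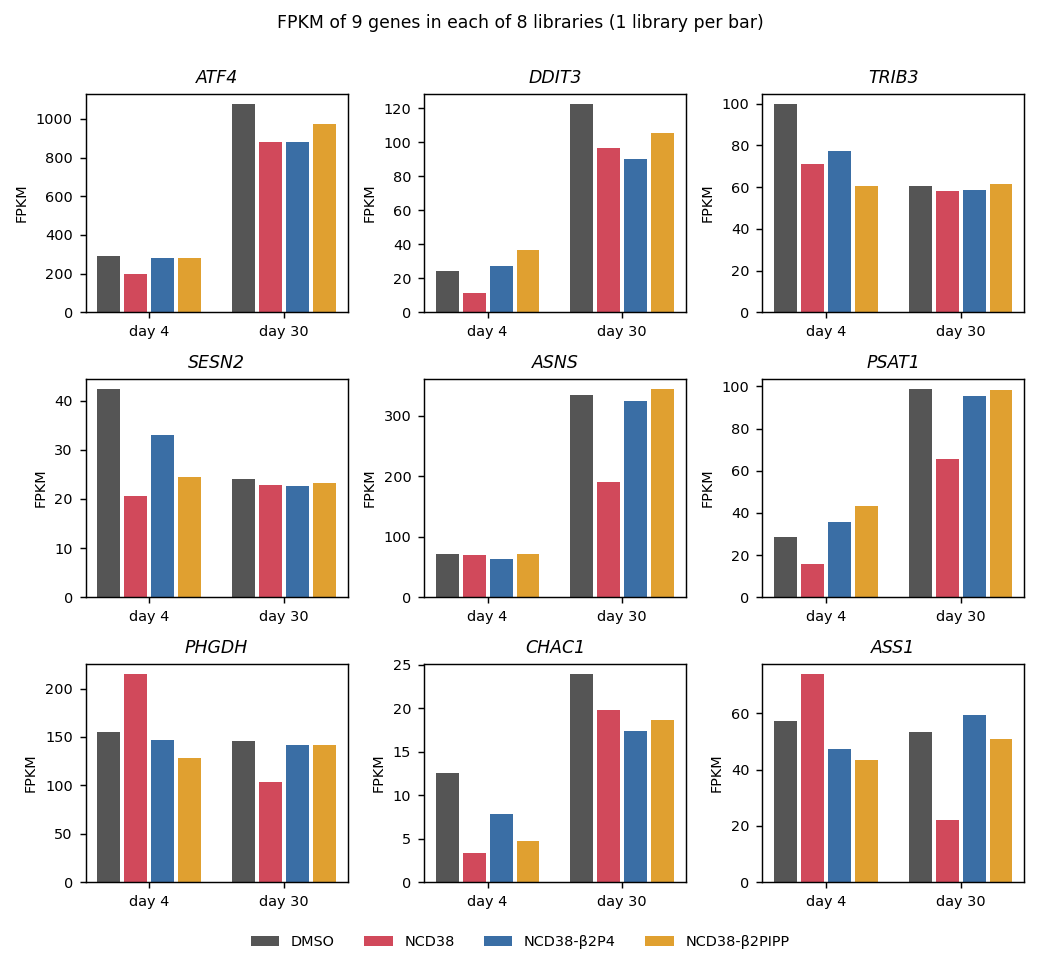
Level of each of 9 genes in FPKM (vertical axis, starting at 0, with its own scale in each panel) in the 4 libraries of day 4 and the 4 of day 30, 1 bar for each library, coloured by treatment. ATF4, DDIT3, ASNS, PSAT1 and CHAC1 have every day 30 bar above every day 4 bar, and ASNS with NCD38 on day 30 (190.4 FPKM) stands below the 324.9 to 343.7 FPKM of the other 3.

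Per length, the order of the levels averaged over the 8 libraries was ATF4 (607.0 FPKM), ASNS (183.4), PHGDH (147.1), TRIB3 (68.48), DDIT3 (64.32), PSAT1 (60.15), ASS1 (50.96), SESN2 (26.67) and CHAC1 (13.54). ATF4 was the highest of the 9 in every library but NCD38 on day 4, where PHGDH was at 214.9 FPKM and ATF4 at 196.6 FPKM. TRIB3, DDIT3, PSAT1 and ASS1 overlapped over the libraries and had no set order, since TRIB3 was above DDIT3 in each library of day 4 and below it in each of day 30.

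The comparison of day 30 with day 4 asks whether the expression of these genes depended on the time in culture under treatment. It was tested with limma on log2(FPKM + 1), with the treatment as a block and p-values adjusted by the Benjamini-Hochberg method over all 10865 genes. The 4 libraries of a day have different treatments and are not replicates of a condition. Day cannot be told apart from any difference in culture or sequencing run between the days, which the labels do not give. Of the 8 genes tested, 5 were called, all higher on day 30, beside 61.9% of all genes called, 30.2% higher and 31.7% lower. The same 5 did not overlap between the days, which held in this direction for 29.5% of all genes.

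ATF4 had a mean of 952.2 ± 93.88 FPKM on day 30 and 261.7 ± 43.68 on day 4 (SD, n = 4 libraries each), and the log2 difference was 1.87 ± 0.12 (SE, limma adjusted p = 0.00041). The difference lay between 1.65 with NCD38-β2P4 and 2.16 in NCD38, so all 4 treatments showed it. DDIT3 had a mean of 103.8 ± 13.95 FPKM on day 30 and 24.84 ± 10.49 on day 4 (SD, n = 4 each), a log2 difference of 2.12 ± 0.27 (SE, limma adjusted p = 0.0016). It ran from 1.5 with NCD38-β2PIPP to 3.0 with NCD38.

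Among the enzymes, ASNS went from 68.56 ± 3.759 FPKM on day 4 to 298.3 ± 72.29 on day 30 (SD, n = 4 each), a log2 difference of 2.07 ± 0.18 (SE, limma adjusted p = 0.00063). With NCD38 the difference was 1.45, the smallest of the 4 treatments, against 2.22 with DMSO. PSAT1 was higher on day 30 by 1.58 ± 0.16 (SE, limma adjusted p = 0.00098) and CHAC1 by 1.49 ± 0.26 (SE, limma adjusted p = 0.0052) on the log2 scale. For CHAC1 the difference was 0.88 with DMSO and 2.26 in NCD38, which had the lowest level on day 4.

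The other 3 genes that were tested had log2 differences of -0.34 ± 0.15 for TRIB3, -0.31 ± 0.19 for SESN2 and -0.26 ± 0.22 for PHGDH (SE), with limma adjusted p of 0.089, 0.2 and 0.33. For PHGDH the value with NCD38 was -1.05, and those with the other treatments were from -0.08 to 0.14. ASS1, which was not tested, had a difference of -1.7 with NCD38 and of -0.11 to 0.32 with the others. TRIB3 and SESN2 were thus not among the genes higher on day 30, although ATF4 and DDIT3 were.

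The difference between the days also followed the GC content of transcripts (Spearman's rho -0.7 over 9879 expressed genes). When the trend with GC content was subtracted before the fit, an alternative added after the data were seen, the same 5 genes were called, with log2 differences of 2.48 for ATF4, 2.43 for DDIT3, 2.19 for CHAC1, 1.4 for ASNS and 0.62 for PSAT1. In that fit TRIB3, SESN2 and PHGDH had differences above 0, of 0.36, 0.46 and 0.44, and none was called. Without both NCD38-β2PIPP libraries, TRIB3 was called lower on day 30, with a log2 difference of -0.46 (limma adjusted p = 0.042).

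**Figure D2:**
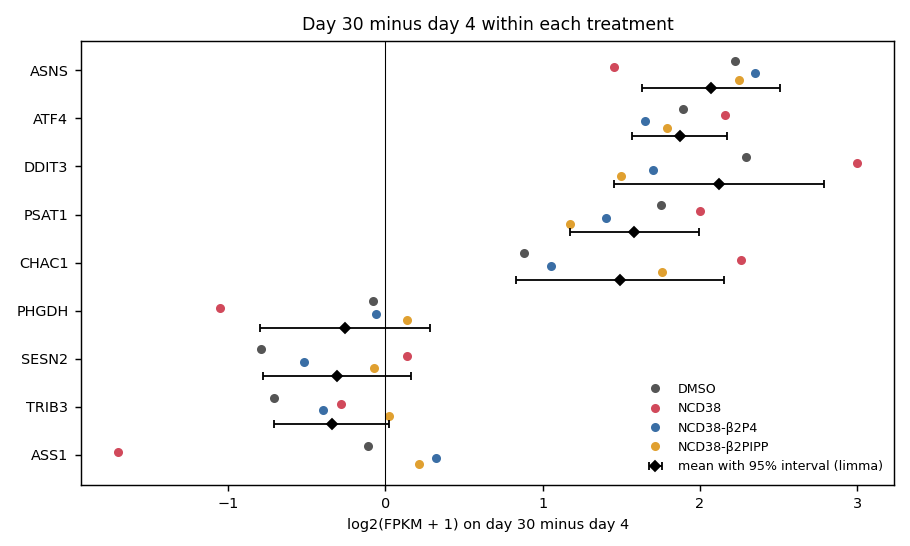
Difference of log2(FPKM + 1), day 30 minus day 4 (horizontal axis), for 9 genes, with 1 point for each treatment and a diamond for the mean with its 95% interval from limma (no interval for ASS1, which was not tested). The upper 5 genes have all points above 0, and NCD38 stands apart at -1.05 for PHGDH and -1.7 for ASS1. The point of ASS1 draws on the day 30 value by which the gene was chosen.

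The comparison of each inhibitor with DMSO of the same day asks which of these genes moved with LSD1 inhibition and whether the polyamide altered this. It sets 1 library against 1, so there is no replicate check and no p-value. Each day has a single DMSO library, which the 3 ratios of that day share. A gene was counted as changed when the log2 ratio of FPKM + 1 was at least 1 in either direction. Counts of genes past 2-fold use that ratio. A fold written for a single gene is the ratio of FPKM itself, so for low genes it is larger than the log2 ratio gives. The error given with a ratio is a 95% half-width for counting alone, from the estimated fragments.

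On day 30, the 8 genes other than ASS1 were all lower with NCD38 than with DMSO, with a median log2 ratio of -0.31 beside 0.059 over all expressed genes. ASS1 was 2.41-fold lower, at -1.23 ± 0.14 on the log2 scale, the value that chose it. It was the only one of the 9 past 2-fold, beside 0.653% of all genes at least 2-fold lower and 1.0% higher, and 0.5% of expressed genes were at or below its ratio. ASNS was 1.75-fold lower (-0.81 ± 0.04), PSAT1 1.5-fold lower (-0.58 ± 0.07) and PHGDH 1.41-fold lower (-0.5 ± 0.06), and the shares of expressed genes at or below these ratios were 1.2%, 2.9% and 4.2%. Nearer to DMSO were DDIT3 (-0.33 ± 0.1), ATF4 (-0.29 ± 0.03), SESN2 (-0.07 ± 0.11) and TRIB3 (-0.06 ± 0.08). CHAC1 was at -0.26 ± 0.17.

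The amino acid enzymes were thus the low group of day 30 with NCD38, and the regulator ATF4 differed by less. Against genes of like GC content the log2 ratios were -0.9 for ASNS, -0.67 for PSAT1, -0.52 for PHGDH and -1.28 for ASS1, close to the values above. Leaving out ASS1, the NCD38 library was the lowest of the 4 on day 30 for 4 of 8 genes (ASNS, PSAT1, PHGDH and TRIB3), beside 26.4% of expressed genes.

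With the conjugates on day 30, the enzymes stayed near DMSO. The log2 ratio of ASNS was -0.04 ± 0.04 for NCD38-β2P4 and 0.04 ± 0.03 for NCD38-β2PIPP, and in the same order PSAT1 was at -0.04 ± 0.07 and -0.01 ± 0.06 and PHGDH at -0.04 ± 0.06 and -0.05 ± 0.05. ASS1 was at 0.16 ± 0.11 and -0.07 ± 0.1. None of the 9 genes was 2-fold lower with either, beside 0.497% of all genes for NCD38-β2P4 and 0.359% for NCD38-β2PIPP, and none was 2-fold higher, beside 0.506% and 0.81%. The lowest ratios with NCD38-β2P4 were those of DDIT3 (-0.44 ± 0.11) and CHAC1 (-0.44 ± 0.19), and 1.4% of expressed genes were at or below each.

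ATF4 was at -0.29 ± 0.03 with NCD38-β2P4, the same as with NCD38, and at -0.14 ± 0.02 with NCD38-β2PIPP. CHAC1 was at -0.34 ± 0.16 with NCD38-β2PIPP, so it was below DMSO in all 3 inhibitor libraries of day 30, as ATF4 and DDIT3 were, and for these 3 genes the shared DMSO library was the highest of that day. The medians over the 9 genes were -0.05 with each conjugate, beside 0.062 and -0.014 over all expressed genes.

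**Figure D3:**
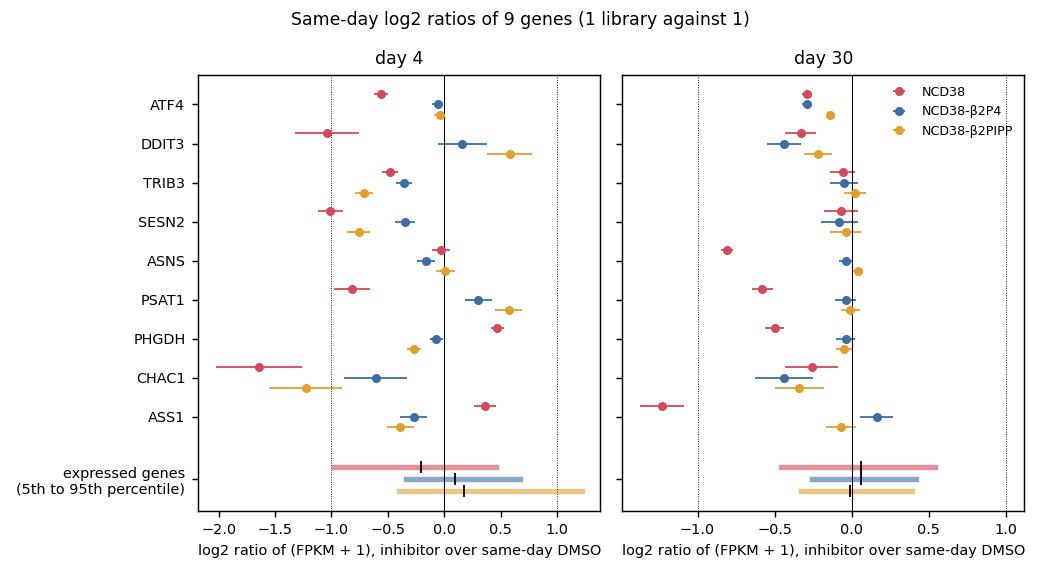
Log2 ratio of FPKM + 1, inhibitor over DMSO of the same day (horizontal axis), for 9 genes on day 4 and on day 30, with the 95% counting half-width as bars and dotted lines at 2-fold. The bands at the bottom run from the 5th to the 95th percentile of expressed genes with the median marked. With NCD38 on day 30, ASNS (-0.81), PSAT1 (-0.58) and PHGDH (-0.5) lie below the band that starts at -0.456. ASS1 (-1.23) also lies below it, the value by which it was chosen.

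On day 4 the expressed genes as a whole were shifted, by a median of -0.209 with NCD38 and 0.175 in NCD38-β2PIPP, and the ratio followed GC content across genes (Spearman's rho 0.61 for NCD38, -0.55 for NCD38-β2P4 and -0.71 for NCD38-β2PIPP, n = 9879 genes). The part of GC content in the ratios of single genes was not tested. The ratios of the 9 genes on this day are therefore followed by the value relative to the median and by the value relative to genes of like GC content.

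With NCD38 on day 4, CHAC1 was 3.75-fold lower (-1.64 ± 0.38 on the log2 scale, -1.43 relative to the median, -1.84 relative to like GC). DDIT3 was 2.15-fold lower (-1.04 ± 0.28, then -0.83 and -0.69) and SESN2 2.06-fold lower (-1.01 ± 0.11, then -0.8 and -1.17). These 3 were the ones past 2-fold, beside 4.54% of all genes at least 2-fold lower and 0.874% higher, and relative to the median CHAC1 alone stayed past 2-fold. ATF4 (-0.56 ± 0.06, then -0.35 and -0.44), PSAT1 (-0.82 ± 0.16, then -0.62 and -0.3) and TRIB3 (-0.48 ± 0.07, then -0.27 and -0.68) were lower as well.

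ASNS with NCD38 on day 4 differed from DMSO by less than the counting half-width (-0.03 ± 0.08), and was at 0.18 relative to the median and at 0.57 relative to like GC. PHGDH (0.47 ± 0.06, then 0.68 and 0.36) and ASS1 (0.36 ± 0.1, then 0.57 and 0.39) were higher with NCD38 than with DMSO. So ASS1 and PHGDH had ratios of opposite sign on the 2 days, and DDIT3, SESN2 and CHAC1, which were closer to DMSO on day 30, were the low ones on day 4. The NCD38 library was the lowest of day 4 for 5 of the 9 genes, beside 60.2% of expressed genes.

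With NCD38-β2PIPP on day 4, CHAC1 was 2.62-fold lower (-1.23 ± 0.32, then -1.4 and -1.12), the only one of the 9 past 2-fold, beside 0.838% of all genes at least 2-fold lower and 10.3% higher. SESN2 (-0.76 ± 0.1, then -0.94 and -0.66) and TRIB3 (-0.71 ± 0.08, then -0.89 and -0.61) were lower too, and 1.1% and 1.2% of expressed genes were at or below them. DDIT3 (0.58 ± 0.2, then 0.4 and 0.45) and PSAT1 (0.57 ± 0.12, then 0.4 and -0.2) were higher than DMSO, though PSAT1 was below genes of like GC content. With NCD38-β2P4 on day 4 no gene was past 2-fold, beside 0.81% of all genes at least 2-fold lower and 1.1% higher, and CHAC1 had the lowest ratio (-0.61 ± 0.28, then -0.71 and -0.59).

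CHAC1, SESN2 and TRIB3 were below the day 4 DMSO library with every inhibitor. With NCD38-β2P4, DDIT3 was at 0.16 ± 0.22 (then 0.06 and 0.09), within the counting error, and PSAT1 at 0.3 ± 0.12 (then 0.21 and -0.08), so its direction turned against genes of like GC content. Since the ratios of a day share the DMSO library, a high value in it lowers all 3. DMSO was the highest library of day 4 for CHAC1, SESN2, TRIB3 and ATF4. On day 30 it was the highest for ATF4, DDIT3, SESN2, PSAT1, PHGDH and CHAC1. The share of all expressed genes with DMSO highest was not counted, so there is no background for this.

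**Figure D4:**
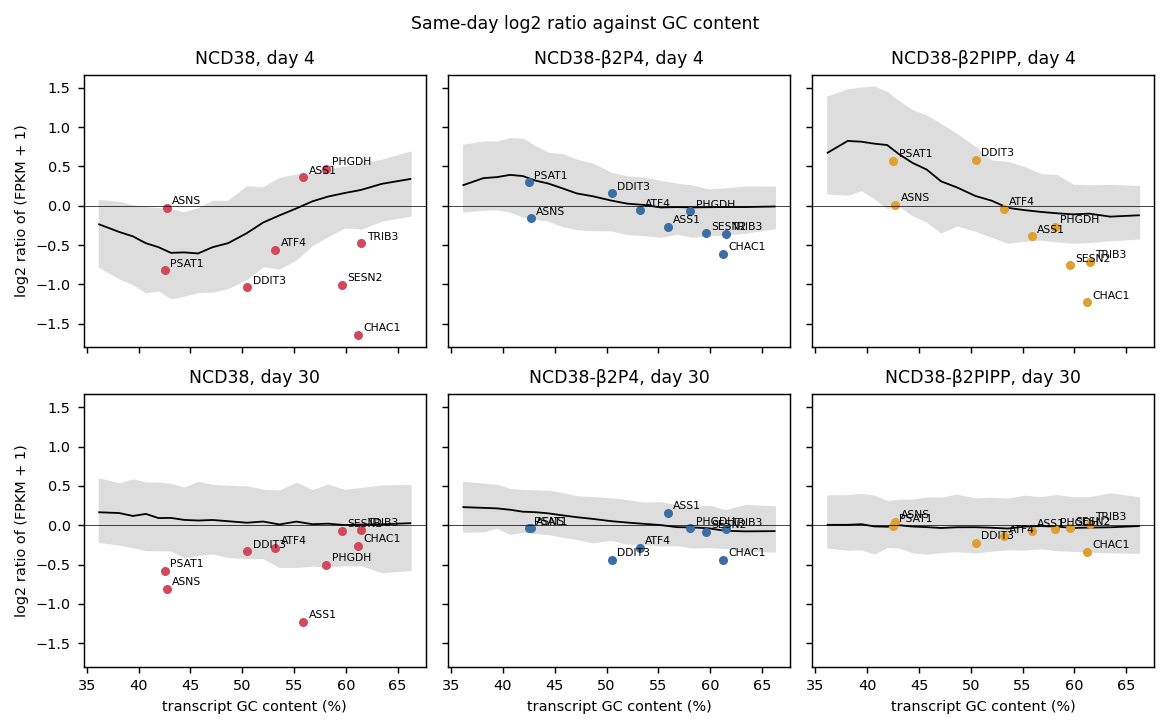
Log2 ratio of FPKM + 1 against DMSO of the same day (vertical axis) over the GC content of the transcript in percent (horizontal axis), for each inhibitor and day. The line is the median and the grey band the 5th to 95th percentile of expressed genes in 20 bins of GC content, and the 9 genes are points. CHAC1 on day 4 lies below the band with each inhibitor, and ASNS, PSAT1 and ASS1 on day 30 lie below it with NCD38. ASS1 was chosen by that value.

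The test over both days asks which differences between treatments are common to the days. It used 2 libraries for each treatment, 1 a day, with the day as a block, and ASS1 was left out. With NCD38 against DMSO, none of the 8 genes was called by limma, beside 0.0368% of all genes. At an unadjusted p under 0.05 there were 3 of the 8, beside 145 of all 10865 genes. These were PSAT1 (log2 difference -0.7 ± 0.23, SE), CHAC1 (-0.95 ± 0.37) and ATF4 (-0.42 ± 0.17), each with a limma adjusted p of 1.0, and each lower on both days. For either conjugate against DMSO none was called either, beside 0.0184% of all genes in each. None of the 8 had an unadjusted p under 0.05, beside 32 of all genes for NCD38-β2P4 and 62 for NCD38-β2PIPP.

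The 3 pairs of compounds were compared at the same dose, as the labels give it, and on the same days. None of the 8 genes was called in any pair, beside 0.0092% of all genes for NCD38-β2P4 minus NCD38, 0.0184% for NCD38-β2PIPP minus NCD38 and 0.0276% for the conjugates against each other. At an unadjusted p under 0.05 there was 1 of the 8 genes, PSAT1, in each of the first 2 pairs and none in the third. Over all 10865 genes there were 352, 692 and 34 in the same order. PSAT1 was higher with NCD38-β2P4 than with NCD38 by 0.83 on the log2 scale (95% interval 0.25 to 1.41, limma adjusted p = 0.71, and 0.87 over the 3 pairs). It was higher with NCD38-β2PIPP than with NCD38 by 0.99 (95% interval 0.4 to 1.57, limma adjusted p = 0.53, and 0.87 over the 3 pairs). With the GC trend subtracted these differences of PSAT1 were 0.35 and 0.4.

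For ASNS the difference between NCD38-β2P4 and NCD38 was 0.32 over both days (95% interval -0.31 to 0.95), made of 0.77 on day 30 and -0.13 on day 4. With NCD38-β2PIPP it was 0.45 (95% interval -0.18 to 1.07), made of 0.85 and 0.05. With the GC trend subtracted the direction of both turned, to -0.17 and -0.13. PHGDH was higher with NCD38-β2P4 than with NCD38 by 0.45 on day 30 and lower on day 4 at -0.54, and its difference over both days was -0.04 (95% interval -0.81 to 0.72). A fit over both days cannot show differences that turn with the day.

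The conjugates differ from each other in a pyrrole of P4 that is an imidazole in PIPP, and their difference was close to 0 for ATF4, at -0.08 (NCD38-β2P4 minus NCD38-β2PIPP, 95% interval -0.5 to 0.34), and for ASNS, at -0.13 (95% interval -0.75 to 0.5). The widest intervals were those of DDIT3 (-1.26 to 0.62) and CHAC1 (-0.68 to 1.2), and these intervals take in 2-fold differences between the conjugates. For ASS1 the P4 conjugate gave 59.46 FPKM on day 30 and 47.44 on day 4, and the PIPP conjugate 50.68 and 43.56.

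The other genes of the pathway were taken from 8 lists with 102 genes in the table, of which 85 were expressed. Between the days 24 of the 85 were higher and 24 lower on day 30 by the test used above, beside 30.2% higher and 31.7% lower over all genes, so these counts are near the background. The counts for single lists are to be read against the same shares. The day difference followed GC content over all genes (Spearman's rho -0.7), and the values of list genes are given without a correction for it. The part of GC content in single list genes was not tested. Among the bZIP partners and other factors of the response, 3 of 11 were higher and 2 lower on day 30. CEBPG, a partner of ATF4 on its composite element, was higher by 2.83 ± 0.31 (SE, log2, limma adjusted p = 0.0011), and NUPR1, a small stress factor, by 2.13 ± 0.31 (SE, log2, limma adjusted p = 0.0026). ATF5, a relative of ATF4, was lower on day 30, with a log2 difference of -1.06 ± 0.11 (SE, limma adjusted p = 0.00091).

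Of 6 expressed enzymes of serine, glycine and one-carbon metabolism, 1 was higher on day 30 and 3 were lower. MTHFD2, a mitochondrial folate enzyme, was higher (log2 difference 0.97) and SHMT2, which makes glycine from serine, was lower (-0.97). Of 12 amino acid transporters 4 were higher and 2 lower, with SLC38A1 at 2.05 and SLC38A2 at 1.77, carriers of neutral amino acids, and SLC7A5, a carrier of large neutral amino acids, at -1.46. Of 13 genes of the ATF6 and XBP1 arms of endoplasmic reticulum stress 6 were higher and 2 lower, with HSP90B1, a chaperone of that compartment, at 3.37 and ATF6 itself at -1.51.

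Of 12 enzymes of proline, alanine, aspartate, cysteine and glutathione, 1 was higher (CTH, 1.66, an enzyme of cysteine synthesis) and 5 were lower on day 30, among them PYCR1 (-1.17) and ALDH18A1 (-1.1) of proline synthesis. Of 14 genes of eIF2α kinases and eIF2 control 4 were higher and 4 lower, with GCN1L1, an activator of the kinase GCN2, at -1.51. So higher and lower genes were found on day 30 in each of the 6 lists named so far.

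The arginine and urea cycle list holds the neighbours of ASS1, and 3 of its 12 expressed genes were higher and 5 lower on day 30. ASL, the enzyme that splits the product of ASS1 into arginine and fumarate, was at -0.87 with NCD38 on day 30. On day 4 ASL was at 0.68 (0.89 relative to the median and 0.52 relative to like GC content), so its ratios had the same signs as those of ASS1. OAT, an ornithine aminotransferase, was higher on day 30 by 2.05, and ODC1, which makes putrescine from ornithine, was lower, with a difference of -0.99. By the log2 ratio of FPKM + 1, none of the 12 was 2-fold lower or higher with NCD38 on either day.

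Over the 85 genes of the lists, 40 had a log2 ratio below 0 with NCD38 on day 30, and the median was 0.04. Those at least 2-fold lower were NUPR1 (-1.63) and PCK2 (-1.0), a mitochondrial enzyme that makes phosphoenolpyruvate, beside 0.653% of all genes, and none was 2-fold higher, beside 1.0%. With NCD38 on day 4, 67 of the 85 were below 0 and 6 at least 2-fold lower, beside 4.54% of all genes. Among the 6 were DDIT4 (-1.43, or -1.22 relative to the median), an inhibitor of mTORC1, and MTHFD2. MTHFD2 was at -1.24, then -1.03 relative to the median and -0.77 relative to like GC content. The median of the 85 was -0.39, beside -0.209 over all expressed genes. With NCD38-β2PIPP on day 4, 13 were at least 2-fold higher, beside 10.3% of all genes. The highest of them, SLC38A1, was at 1.56, then 1.39 relative to the median and 0.77 relative to like GC content. These day 4 counts carry no correction for GC content, and its part in them was not tested.

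**Figure D5:**
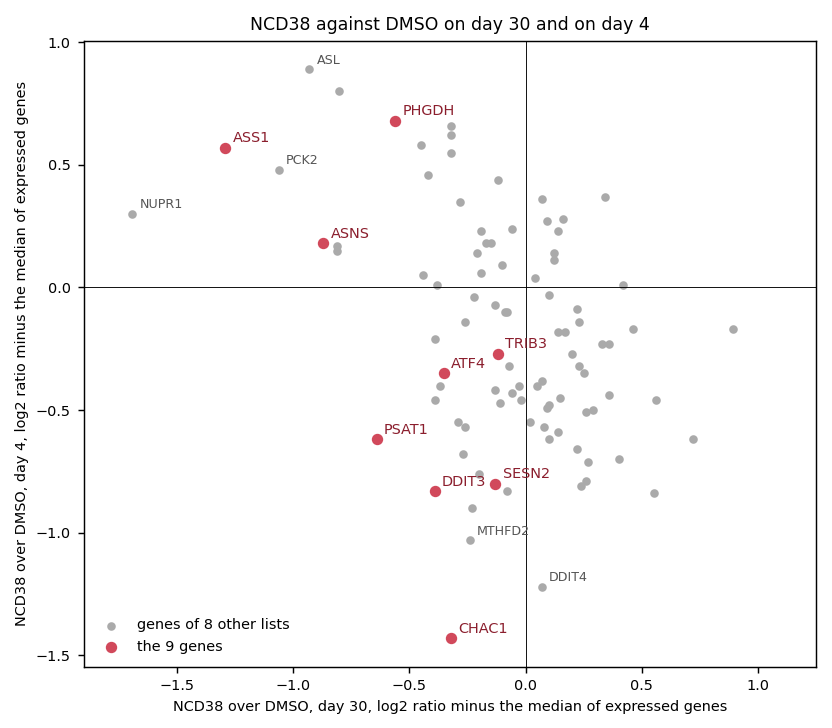
Log2 ratio of NCD38 over DMSO minus the median of expressed genes, on day 30 (horizontal axis) and on day 4 (vertical axis), for the 9 genes (red) and 85 genes of 8 other lists (grey). ASS1, PHGDH and ASNS lie with NUPR1, PCK2 and ASL at the upper left, low on day 30 and not on day 4. ASS1 was chosen by its day 30 value. CHAC1 lies lowest on the day 4 axis at -1.43.

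The genes most like ASS1 were sought by the correlation of log2(FPKM + 1) over the 8 libraries after the mean of each day was subtracted, among 7098 genes with a mean of at least 5 FPKM. The libraries of a day may share a culture or a sequencing run, which the labels do not give. The 5 nearest were AKR7A3 (r = 0.995), ABHD11 (0.993), ACOT1 (0.991), UCP2 (0.99) and NDUFAF3 (0.988). UCP2, a carrier of the inner mitochondrial membrane, was at 30.8 FPKM in DMSO, 10.2 in NCD38, 34.2 in NCD38-β2P4 and 26.5 in NCD38-β2PIPP on day 30, and at 32.9, 51.3, 30.6 and 27.7 FPKM on day 4. Its NCD38 library was the lowest on day 30 and the highest on day 4. This likeness to ASS1 follows from the choice of UCP2 by its correlation with ASS1 and adds nothing to it.

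Among the 9 genes, ASS1 was nearest to PHGDH (r = 0.88) and ASNS (r = 0.86), while its r with ATF4 was -0.16, with DDIT3 -0.38 and with CHAC1 -0.14. DDIT3 was nearest to PSAT1 (r = 0.91) and ATF4 (r = 0.9). The genes most like DDIT3 in the whole table were TADA2B (0.994), TXNDC11 (0.989), MKRN2 (0.986), IFNGR2 (0.985) and MORC2 (0.985). For ASNS they were MED11 (0.987), CDK20 (0.98), SNORA66 (0.972), SNORD100 (0.965) and ATG16L2 (0.961), of which SNORA66 and SNORD100 are small RNAs listed at 0 in 5 libraries. The r between ASNS and PHGDH was 0.58. The r values with ASS1 draw on the NCD38 library of day 30, by which ASS1 was chosen, and all are descriptions over 8 libraries.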

How the data were processed

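RNA of 8 RKO libraries was analysed here, and the ChIP-seq samples of the series were not analysed here. The authors prepared stranded mRNA libraries and deposited FPKM values estimated with Cufflinks. The paper names TopHat as the aligner, while the submitters' processing notes name HISAT2 2.2.1.0, BWA 0.5.9 and bedtools 2.20.1, with the build hg19. The annotation is not given in the sources used here. FPKM is scaled for length and mapped fragments, so the values hold no counts, and an exact 0 can be a failed estimate.

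The table has 25594 entries, of which 90 with a repeated name were left out. Genes were matched to GENCODE release 44 on GRCh37 through their symbols or, where RefSeq gave just a single gene for an older name, through that name, which placed 9879 of the 10865 expressed genes (90.9%). Promoter windows were those of RefSeq. Depth and the 95% counting half-widths rest on the FPKM of single fragments in transcripts of 1500 to 6000 nt, are estimates, cover counting error only, and hold for ratios without a pseudocount.

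Log2 ratios used a pseudocount of 1, which makes the ratios of low genes smaller. The libraries were fitted with limma 3.58.1 in R 4.3.3 on log2(FPKM + 1), with day and treatment as terms, an intensity trend, and 3 residual degrees of freedom, over genes with a mean of at least 1 FPKM. A call needed an adjusted p below 0.05. The fit of the day difference was also run on simulated data, and the outcome of that run is not given here. Nothing in the labels says that the libraries came from separate cultures, so p-values measure the spread between these libraries.

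The 10 genes, the lists, the tests and the rule for other named genes were chosen with earlier results of these data known. By that rule, list genes were named when they were expressed and 2-fold apart in any same-day comparison, or among the 2 highest or the 2 lowest of their list between the days, and the 5 genes most like ASS1, ASNS and DDIT3 were named, except results that are not reported here. Alternatives changed the pseudocount, the filter, the scaling, the DMSO library, the fold, the block and the treatments included.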

Additional observations from a re-analysis of the deposited data

Results flagged for a closer look

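Within the 4 libraries of a day, 4 values of these genes stood far from the rest by Dixon's test, for which the gap of the lowest or highest library to its neighbour is divided by the range and set against Dixon's 95% critical value. The 8 expressed genes other than ASS1, which was chosen by its value in such a set, gave 16 sets of 4 libraries. Chance passes about 1 in 20 such sets, and the 4 libraries of a set have different treatments and are not replicates. Of all expressed genes 6.77% passed on day 30 and 5.2% on day 4, and 1.68% and 2.22% passed with NCD38 as the lowest library.

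On the log2(FPKM + 1) scale, which was settled after values were known, the ratio was 0.923 for PSAT1, 0.909 for PHGDH and 0.904 for ASNS, in each with NCD38 as the lowest library of day 30. For PSAT1 the gap lay between 65.71 and 95.64 FPKM, for PHGDH between 103.1 and 141.4 FPKM and for ASNS between 190.4 and 324.9 FPKM. The ratio was 0.897 for ATF4, with NCD38 as the lowest library of day 4, at 196.6 FPKM beside 278.7 FPKM in the next one. All 4 passed on the linear FPKM scale as well.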

How the results depend on the processing

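Across alternatives, 718 values were recomputed, of which 575 were classed as unchanged. For ratios and tested differences this means the same sign and call, or a move smaller than the error. Counts of genes classed so could still change, as from 127 to 190 past 2-fold for NCD38-β2PIPP on day 30 with a pseudocount of 0.1. The 5 genes called higher on day 30 were called in every alternative fit, and none of the 8 genes was called in any comparison of treatments under any alternative. The libraries were paired by treatment in the day test and by day in the treatment tests. No libraries were paired by replicate number, since the labels carry none. Each day alone leaves no residual degrees of freedom, so inhibitors were given by day as ratios with no test.

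The number of genes called between the days was 6722, from 4567 to 7103 when both libraries of a treatment were left out. The day difference changed sign with the GC trend subtracted for TRIB3 (0.36), SESN2 (0.46) and PHGDH (0.44), and with quantile normalization for PHGDH (0.05). With the GC trend subtracted the sign also changed for PSAT1 (-0.13) with NCD38-β2P4 minus DMSO, for ASNS (-0.3) and PSAT1 (-0.09) with NCD38-β2PIPP minus DMSO, for ASNS (-0.17) and PHGDH (0.04) with NCD38-β2P4 minus NCD38, and for ASNS (-0.13) and TRIB3 (0.09) with NCD38-β2PIPP minus NCD38. With quantile normalization it changed for ATF4 (0.0) with NCD38-β2PIPP minus DMSO, PHGDH (0.04) with NCD38-β2P4 minus NCD38, and TRIB3 (0.01) and CHAC1 (-0.21) with NCD38-β2PIPP minus NCD38. None of these was called in either fit, and the cause was not tested.

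Genes past 2-fold on day 30 numbered 180 for NCD38, 109 for NCD38-β2P4 and 127 for NCD38-β2PIPP, and at 1.5-fold 739, 250 and 286. On day 4 they numbered 588, 208 and 1213, and at 1.5-fold 2670, 1037 and 3151. With a pseudocount of 0.1 they numbered 327, 170 and 190 with the 3 inhibitors on day 30, and 1669, 623 and 2416 on day 4. Over genes with a mean of at least 5 FPKM they numbered 119, 77 and 75 on day 30, and 499, 171 and 765 on day 4. At 1.5-fold, 2 of the 9 genes passed with NCD38 on day 30 (1 at 2-fold), 1 with NCD38-β2P4 on day 4 (0 at 2-fold) and 3 with NCD38-β2PIPP on day 4 (1 at 2-fold).

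Few genes were called between treatments, and the numbers moved with the settings. NCD38 minus DMSO gave 4 genes, 2 without the filter and 2 with a mean of at least 5 FPKM. NCD38-β2P4 minus DMSO gave 2, with 4 for a pseudocount of 0.1, 1 without the filter, 1 with at least 5 FPKM and 4 with quantile normalization. NCD38-β2PIPP minus DMSO gave 2, with 1 for a pseudocount of 0.1 and 1 with at least 5 FPKM. NCD38-β2P4 minus NCD38 gave 1, with 2 for a pseudocount of 0.1 and 0 without the filter, NCD38-β2PIPP minus NCD38 gave 2 and 0 without the filter, and the conjugates against each other gave 3 and 0 without the filter. With the GC trend subtracted all 6 gave 0.

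Of 54 same-day ratios, the DMSO library of the other day moved 50 beyond the counting half-width, rescaling to a median of 0 moved 23 and subtracting the median of like GC content moved 19, whereas smaller pseudocounts moved none. The other day's DMSO library also brings in the difference between the days. Depth limits CHAC1 most, with a half-width of 0.38 for NCD38 on day 4.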

Other observations

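Among the list genes, NUPR1 had the largest difference between NCD38 and DMSO on day 30. It was at 17.2 FPKM in DMSO, 4.864 in NCD38, 9.481 in NCD38-β2P4 and 14.21 in NCD38-β2PIPP, and on day 4 at 1.54, 1.709, 1.556 and 1.671 FPKM. The NCD38 library was the lowest of day 30, and the libraries of day 4 were nearly level, as for ASNS. On day 4 NUPR1 was close to the filter of 1 FPKM, so its level values say little, whereas ASNS was at 63.11 to 71.35 FPKM. The 2 genes differed with NCD38-β2P4 on day 30, where the log2 ratio to DMSO was -0.8 for NUPR1 and -0.04 for ASNS. PCK2 was at 43.15, 21.04, 40.67 and 52.52 FPKM on day 30 and at 34.96, 42.31, 32.86 and 27.86 FPKM on day 4. ASL was at 9.676, 4.832, 9.18 and 10.09 FPKM on day 30 and at 20.85, 34.08, 18.76 and 16.41 FPKM on day 4. In both genes NCD38 was the lowest library of day 30 and the highest of day 4, as in ASS1 and PHGDH. These values come from single libraries and were not tested for treatment.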
